A study of Mus musculus with 12 samples.

Results

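The constant region genes of the T cell receptor (TCR) are 7 of the 35855 genes joined to the deposited libraries, taken by their gene symbols. Trac, Trbc1 and Trbc2 encode the alpha and beta chains, and Trdc, Trgc1, Trgc2 and Trgc4 encode the delta and gamma chains. All 7 were in the files, each under 1 or 2 transcripts. Their levels in CD8 T cells were compared between WT and TCF-1 cKO mice, before transplantation and on day 7 after it, together with the ratio of gamma-delta to alpha-beta constant region RNA.

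A T cell displays either an alpha-beta or a gamma-delta receptor, and each chain joins a variable part, made by gene rearrangement, to one of these constant regions. CD8 T cells of the spleen are mostly alpha-beta T cells. The gamma genes are rearranged in the thymus before the alpha-beta lineage is settled, so many alpha-beta T cells also carry rearranged gamma genes, while Trdc lies inside the alpha locus and is cut out when that locus rearranges.

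The study examined how loss of TCF-1, a transcription factor encoded by Tcf7, alters donor CD8 T cells in graft-versus-host disease, with 3 libraries in each of 4 groups. TCF-1 cKO mice carried Tcf7 alleles flanked by loxP sites and Cre under the Cd4 promoter (TCF-1 flox/flox x CD4cre, C57BL/6 background), which deletes the gene in thymocytes that express both CD4 and CD8 and so in CD4 and CD8 T cells alike. WT donors were also on this background, listed in the methods as C57BL/6J or B6.SJL-Ptprca mice. Which of these strains gave the WT libraries is not stated. Pre-transplant libraries are CD8 T cells sorted by flow cytometry from donor spleen, and the post-transplant libraries are H2Kb-positive donor CD8 T cells sorted from the spleen of lethally irradiated BALB/c recipients that had been given CD3 T cells and T cell-depleted WT bone marrow. The pre-transplant cells came from different mice. For the post-transplant libraries separate donors are not stated, so p-values measure the spread between these libraries. The study's methods give the recipients as 6 to 8 weeks old or older and the donors as matched to them in age where possible.

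The members are close copies of each other, and that bears on how their reads can be told apart. The sequences below are coding sequence from the GENCODE M21 transcripts (GRCm38), shown because Trbc1 and Trbc2, and likewise Trgc1 and Trgc2, differ at few bases. The first 150 coding bases of Trbc1 (chr6:41538218-41538367, plus strand) and of Trbc2 (chr6:41546730-41546879, plus strand) are identical. Over their 518 coding bases, 23 differ, and 19 of these lie in the last 120 bases, here in capitals. Those bases lie in 2 exons, at chr6:41539234-41539335 and chr6:41539645-41539662 for Trbc1 and at chr6:41547777-41547878 and chr6:41548161-41548178 for Trbc2.
Trbc1: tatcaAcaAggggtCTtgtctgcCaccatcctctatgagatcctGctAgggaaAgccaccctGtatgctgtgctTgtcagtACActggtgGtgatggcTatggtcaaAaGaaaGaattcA
Trbc2: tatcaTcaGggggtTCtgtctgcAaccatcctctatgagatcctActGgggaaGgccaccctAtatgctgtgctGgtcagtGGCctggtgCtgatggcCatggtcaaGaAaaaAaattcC

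The first 150 coding bases of the gamma genes are in the first coding exon of each, at chr13:19214103-19214252 on the plus strand for Trgc1, chr13:19307402-19307551 on the minus strand for Trgc2 and chr13:19344558-19344707 on the plus strand for Trgc4. Capitals mark the 17 positions at which the 3 genes are not all alike.
Trgc1: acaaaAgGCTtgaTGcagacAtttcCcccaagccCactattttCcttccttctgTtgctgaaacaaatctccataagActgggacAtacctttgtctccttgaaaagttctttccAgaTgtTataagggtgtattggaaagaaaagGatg
Trgc2: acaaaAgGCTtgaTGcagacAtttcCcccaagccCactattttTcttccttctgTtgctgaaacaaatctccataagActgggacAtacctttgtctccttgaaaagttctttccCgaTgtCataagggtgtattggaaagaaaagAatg
Trgc4: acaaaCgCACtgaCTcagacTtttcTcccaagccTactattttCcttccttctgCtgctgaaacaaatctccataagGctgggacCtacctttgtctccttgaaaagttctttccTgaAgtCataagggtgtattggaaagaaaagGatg

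In this stretch Trgc1 and Trgc2 differ at 4 bases, and Trgc4 differs from them at 15 and 16. Kallisto, the pseudoaligner used by the authors, assigns reads by runs of 31 bases, so the share of such runs that no other annotated gene holds was counted. It was 100% for Trac and Trgc4, 94.1% for Trdc, 55.2% for Trbc1, 51.5% for Trbc2, 49.0% for Trgc1 and 54.1% for Trgc2. Of its runs Trdc shares 177 with Trdv5, a delta variable segment on the opposite strand, and fewer with Klhl32 and Dlx6, and the libraries do not mark strand. The division of reads within the Trbc pair and between Trgc1 and Trgc2 is therefore an estimate, and sums over the copies are given beside the results they touch.

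Estimated counts totalled 4520270 to 9577076 per library in the pre-transplant TCF-1 cKO group and 18184814 to 32657005 in the other 3 groups. The detection floor used, 3 counts, equals 0.0919 to 0.664 CPM (counts scaled to one common library total) and covers counting error only. The targeted gene Tcf7 was at 66.9, 49.7 and 87.1 TPM (transcript abundance scaled for length and library total) in WT and 22.1, 31.7 and 38.6 TPM in TCF-1 cKO cells before transplant, and at 6.55, 4.69 and 2.23 TPM against 2.79, 2.97 and 2.84 TPM on day 7. The library labelled WT post-transplant replicate 3 was thus below the 3 TCF-1 cKO libraries. Neither difference passed the test (edgeR's quasi-likelihood test, adjusted p = 0.223 and 0.308). Cd8a was at 18.1 to 99.8 TPM before transplant and 112 to 183 TPM on day 7. Cd4 was at 18.8 to 48.9 TPM before transplant and 0.393 to 3.51 TPM on day 7, including the TCF-1 cKO library that 1 label calls CD4 T cells, at 0.453 TPM. Markers of other cells differed between the stages: the summed level of 8 B cell genes was 6837 to 22236 CPM in pre-transplant and 411 to 1022 CPM in post-transplant libraries, and that of 6 erythroid genes was 2526 to 18469 CPM and 276 to 2374 CPM. No defining B cell gene was at 0 before transplant.

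Alpha-beta constant region RNA was far more abundant than gamma-delta RNA in every library, the latter sum being 0.361 to 8.67% of the former in TPM. In WT cells before transplant the levels were 1170.1 ± 121 TPM for Trbc2, 785 ± 177 TPM for Trbc1 and 316 ± 52.1 TPM for Trac (SD, n = 3, as for every mean given here). Those 3 ranges did not overlap. The gamma-delta genes followed at 11.9 ± 6.34 TPM for Trgc2, 10.1 ± 8.02 TPM for Trgc1, 7.91 ± 7.47 TPM for Trgc4 and 5.22 ± 3.12 TPM for Trdc, which did not differ from each other beyond their spread. The order was the same in TCF-1 cKO cells before transplant apart from Trdc and Trgc4, with Trbc1 and Trbc2 overlapping. On day 7 Trbc2 and Trbc1 overlapped in both genotypes, Trac stood below them, and Trgc2 stood between Trac and the other gamma-delta genes with no overlap. Below it came Trgc1, then Trdc and Trgc4, and of these only Trdc and Trgc4 in TCF-1 cKO cells overlapped.

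**Figure D1:**
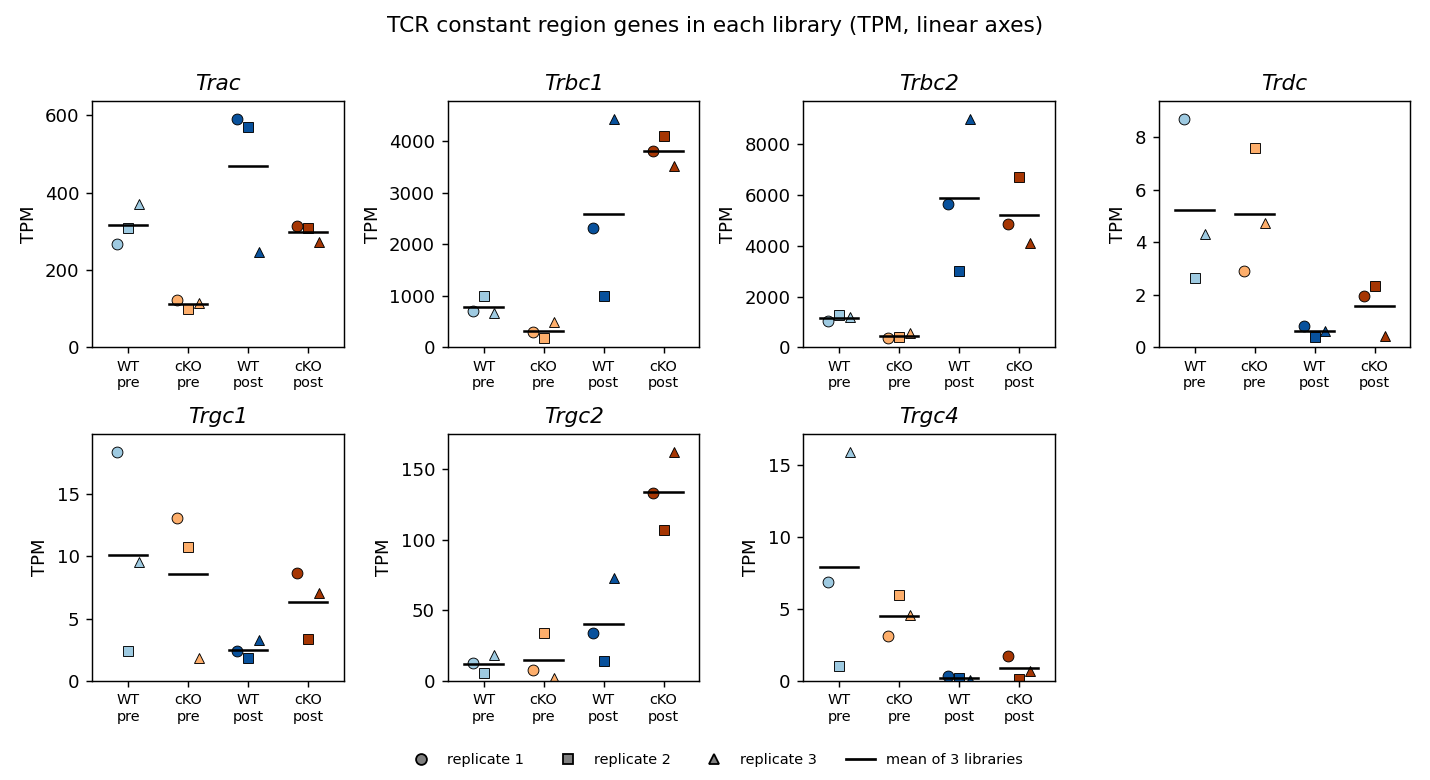
TPM of each constant region gene (linear axes, one panel a gene) in the 12 libraries by group, where a point is a library, its shape the replicate number, and the line the group mean. The means of Trbc1, Trbc2 and Trgc2 are higher on day 7 in both genotypes, and Trac of WT replicate 3 on day 7 lies below the other WT libraries.

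The first question was how the receptor genes differ between the pre-transplant and the day 7 libraries. These stages also differ in the B cell and erythroid RNA given above. In WT cells Trbc1, Trbc2, Trac and Trgc2 were higher and Trgc4 was lower on day 7 than before transplant, and in TCF-1 cKO cells the same 4 genes were higher. Trbc1, which encodes one of the interchangeable beta constant regions, was at 710.5, 987 and 657 TPM in WT cells before transplant and at 2319.7, 991 and 4435 TPM on day 7. The groups did not overlap, although replicate 2 of day 7 was only just above the highest pre-transplant library. Its log2 fold change was 3.08 (SE 0.55, adjusted p = 0.00614, quasi-likelihood test of edgeR, Benjamini-Hochberg adjusted over all genes tested, as for every adjusted p below).

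Trbc2, the other beta constant region, was at 1038, 1275 and 1197 TPM in WT cells before transplant and at 5644, 3009 and 8993 TPM on day 7. Every day 7 library lay above every pre-transplant library. This was a log2 fold change of 3.47 (SE 0.49, adjusted p = 0.00233). Trbc2 of TCF-1 cKO cells was at 381, 392 and 579 TPM before transplant and at 4838, 6722 and 4092 TPM on day 7. Trbc1 in these cells was at 302, 175 and 498 TPM before transplant and at 3814, 4094 and 3518 TPM on day 7. Neither gene overlapped between the stages, with edgeR log2 fold changes of 5.35 (SE 0.53, adjusted p = 0.000166) for Trbc2 and 5.65 (SE 0.54, adjusted p = 0.000155) for Trbc1.

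Trac, the only alpha constant region gene, had a smaller log2 fold change than the beta genes in both genotypes, a difference that was not tested. It was at 268, 309 and 371 TPM in WT cells before transplant and at 591, 571 and 246 TPM on day 7. Replicate 3 of day 7 lay below all pre-transplant libraries, so the groups overlapped in TPM. The log2 fold change of 1.83 (SE 0.50, edgeR adjusted p = 0.0370) rests on TMM normalization, and with library totals in its place it was 0.80 (adjusted p = 0.210). Leaving out WT pre-transplant replicate 1, 2 or 3 also ended the call, with adjusted p = 0.166, 0.132 and 0.132. The TCF-1 cKO libraries held Trac at 122, 100.3 and 116 TPM before transplant and at 313, 308 and 272 TPM on day 7, with no overlap and a log2 fold change of 3.35 (SE 0.37, edgeR adjusted p = 0.000254).

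The choice of scaling moved all genes together in these comparisons. The median log2 fold change over all genes tested was -0.30 in WT and -0.29 in TCF-1 cKO cells with TMM, and -1.25 and -1.89 with library totals. Relative to that median the beta genes stood apart with either scaling: with library totals Trbc2 was at 2.59 in WT and 3.86 in TCF-1 cKO cells on the log2 scale. In WT cells 9.7% of all 16790 genes tested were called higher and 10.3% lower, against 4 and 1 of the 7 members. The TCF-1 cKO comparison called 19.7% of 18535 genes higher and 16.8% lower, against 4 and 0 of 7. With library totals the share of all calls that were higher was 14.8% in WT and 13.5% in TCF-1 cKO cells, where TMM gave 48.4% and 54.0%. The sorted pre-transplant cells carried the B cell and erythroid RNA given above, and its part in these differences was not tested. In RNA from many cells, fewer cells of a type and less RNA per cell cannot be told apart.

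Among the gamma-delta genes Trgc2 was the only one called higher on day 7 in both genotypes. Trgc2 encodes a gamma constant region and is, with Trgv2 and Trgj2, transcribed from the minus strand, against the direction of the other gamma genes. It was at 12.4, 5.31 and 18.0 TPM in WT cells before transplant and at 34.0, 14.1 and 73.1 TPM on day 7. Day 7 replicate 2 fell inside the pre-transplant range. Its log2 fold change was 2.88 (SE 0.76, edgeR adjusted p = 0.0306), with adjusted p = 0.107 without WT pre-transplant replicate 1 and 0.114 without replicate 2. The TCF-1 cKO libraries held Trgc2 at 7.81, 33.5 and 2.11 TPM before transplant and at 133, 107 and 162 TPM on day 7. Every day 7 library lay above every pre-transplant library, and the log2 fold change was 5.35 (SE 0.83, edgeR adjusted p = 0.00138). Summed over Trgc1, Trgc2 and the further copy Trgc3, the log2 fold change was 2.06 in WT (adjusted p = 0.0870) and 4.74 in TCF-1 cKO cells (adjusted p = 0.00105).

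Trgc4, another gamma constant region, had 145, 16 and 295 estimated counts in WT cells before transplant and 9, 4 and 1 on day 7. In TPM these were 6.86, 1.03 and 15.9 against 0.327, 0.171 and 0.0538, with no overlap. Its log2 fold change of -4.22 (SE 1.26, edgeR adjusted p = 0.0510) was lost without WT pre-transplant replicate 3 (adjusted p = 0.233) and without WT post-transplant replicate 1, 2 or 3 (adjusted p = 0.140, 0.120 and 0.130). Trgc4 of TCF-1 cKO cells was at 3.07, 5.97 and 4.54 TPM before transplant and at 1.73, 0.153 and 0.712 TPM on day 7. These did not overlap either, yet the log2 fold change was -0.43 with TMM (SE 0.94, edgeR adjusted p = 0.765) and -2.03 with library totals (adjusted p = 0.0979).

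Trdc, the delta constant region, was at 8.69, 2.65 and 4.31 TPM in WT cells before transplant and at 0.810, 0.401 and 0.614 TPM on day 7. The day 7 libraries were all lower, with a log2 fold change of -1.93 (SE 0.74, edgeR adjusted p = 0.113) with TMM and -2.85 (adjusted p = 0.0276) with library totals. The TCF-1 cKO libraries held it at 2.92, 7.57 and 4.71 TPM before transplant and at 1.95, 2.34 and 0.427 TPM on day 7. Here too the day 7 libraries were all lower in TPM, but the log2 fold change was 0.25 with TMM (SE 0.65, edgeR adjusted p = 0.803) and -1.34 with library totals (adjusted p = 0.103), so its direction depends on the scaling.

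Trgc1 was at 18.4, 2.36 and 9.52 TPM in WT cells before transplant and at 2.36, 1.86 and 3.27 TPM on day 7, and these overlapped (log2 fold change -0.83, SE 0.89, edgeR adjusted p = 0.587). Trgc1 of TCF-1 cKO cells was at 13.1, 10.8 and 1.80 TPM before transplant and at 8.64, 3.40 and 7.06 TPM on day 7, again overlapping. The log2 fold change of 1.71 (SE 0.70) just missed the threshold of 0.1 with TMM (edgeR adjusted p = 0.100391) and was -0.01 with library totals (adjusted p = 0.989). It passed without TCF-1 cKO pre-transplant replicate 1 (2.20, adjusted p = 0.0912) or without TCF-1 cKO post-transplant replicate 2 (2.08, adjusted p = 0.0815).

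**Figure D2:**
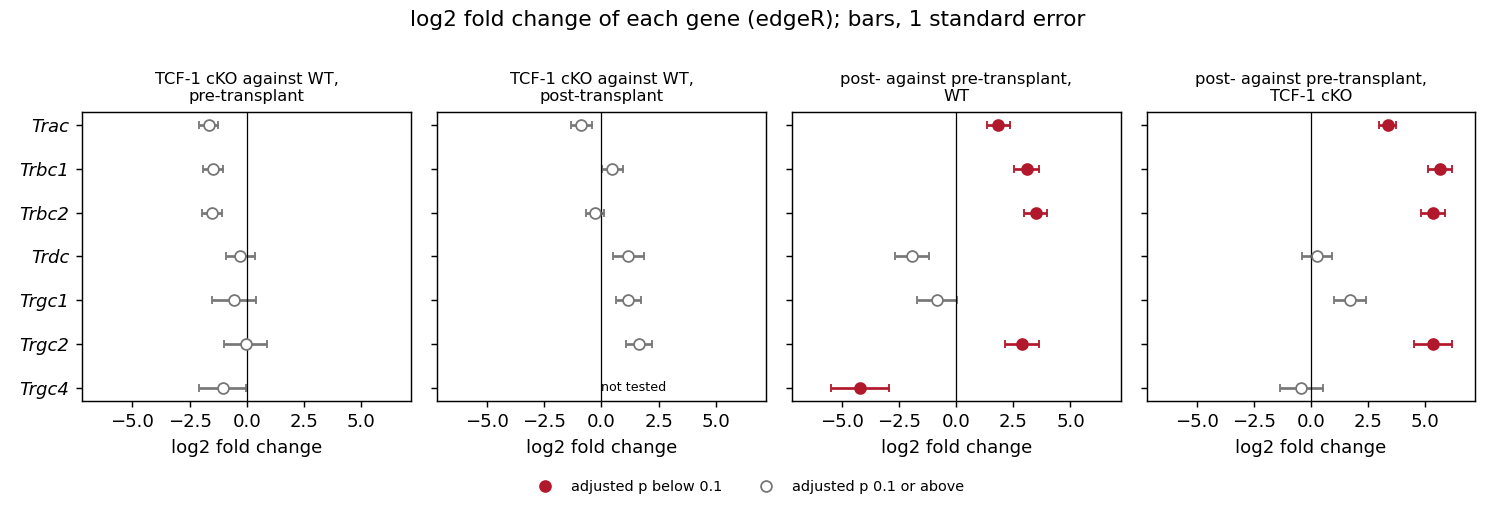
Log2 fold change of each constant region gene by edgeR with TMM (points, bars are 1 SE) in the 4 comparisons, with filled points for adjusted p below 0.1. Trac, both beta genes and Trgc2 are filled and to the right of 0 in the comparisons of post- with pre-transplant cells, and no point is filled between the genotypes.

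The next question was whether TCF-1 cKO cells differed from WT cells before transplant. No member passed the test, while all 3 alpha-beta genes were lower in every TCF-1 cKO library than in every WT library, as were 10.8% of the 18757 genes tested. Over all genes 0.016% were called higher and 0.0213% lower, and 3322 genes (17.7%) and 3 members had an unadjusted p below 0.05. Limma-voom with quality weights called 3 of 7 members and 40.3% of all genes, and DESeq2 called 3 and 7.74%. Trac had a log2 fold change of -1.66 (SE 0.41, edgeR adjusted p = 0.199), Trbc1 of -1.48 (SE 0.45, adjusted p = 0.209) and Trbc2 of -1.53 (SE 0.44, adjusted p = 0.199). Without TCF-1 cKO pre-transplant replicate 3 all 3 passed, with log2 fold changes of -1.90, -2.06 and -2.11 (edgeR adjusted p = 0.0211, 0.0169 and 0.0141). The pre-transplant TCF-1 cKO libraries were also the shallowest.

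The gamma-delta genes overlapped between the genotypes before transplant. Their log2 fold changes were -0.29 (SE 0.64) for Trdc, -0.56 (SE 0.96) for Trgc1, -0.04 (SE 0.94) for Trgc2 and -1.05 (SE 1.03) for Trgc4, with edgeR adjusted p from 0.574 to 0.983. The signs of Trdc and Trgc2 turned with library totals, to 0.08 and 0.41. In each genotype 1 library had little of some of these genes: WT replicate 2 held 2.36 TPM of Trgc1 and 1.03 TPM of Trgc4, and TCF-1 cKO replicate 3 held 2.11 TPM of Trgc2. The 7 members had a median log2 fold change of -1.05, and all genes tested one of 0.05. Cd8a, the coreceptor by which the cells were sorted, had a log2 fold change of -1.96 (edgeR adjusted p = 0.179), further from 0 than those of the alpha-beta genes.

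The genotypes were compared again on day 7. None of the 6 members tested passed, while 2.51% of 16026 genes were called higher and 15.4% lower in TCF-1 cKO cells. An unadjusted p below 0.05 was reached by 1 member and by 28.1% of all genes, and DESeq2 called 1 member and 28.2% of all genes. Over all genes, leaving out any library but WT replicate 3 gave 0 to 2 calls in place of 2868. Trgc2 came closest: its TCF-1 cKO libraries at 133, 107 and 162 TPM all lay above the WT libraries at 34.0, 14.1 and 73.1 TPM. The log2 fold change was 1.64 (SE 0.56, edgeR adjusted p = 0.101). Trgc1 likewise did not overlap, at 8.64, 3.40 and 7.06 TPM against 2.36, 1.86 and 3.27 TPM, with a log2 fold change of 1.18 (SE 0.54, edgeR adjusted p = 0.198). In CPM with TMM over these 6 libraries, 20.5% of all genes tested were higher without overlap, as were 2 members. With TMM over all 12 libraries Trgc1 overlapped, at 4.11 CPM in TCF-1 cKO replicate 2 and 4.30 CPM in WT replicate 3.

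Trgc2 passed in 7 of 20 alternative analyses and was higher in TCF-1 cKO cells in all 20, with adjusted p between 0.00442 and 0.296. Without WT post-transplant replicate 3, the library in which Tcf7 was lowest and Trgc2 highest of the WT group, it was 2.20 on the log2 scale (edgeR adjusted p = 0.0159). Summed with Trgc1 and Trgc3 it was 1.62 (adjusted p = 0.0970). Over all genes the log2 fold change followed GC content in this comparison (Spearman's rho of -0.55, a description over 16026 genes that are not independent points). Trgc2 has 42.8% GC where the median gene tested has 49.7%, and with an offset for GC content and length its log2 fold change was 0.93 (edgeR adjusted p = 0.174). The part of GC content in the remaining difference was not tested.

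The alpha-beta genes did not move together on day 7. Trac was at 591, 571 and 246 TPM in WT and at 313, 308 and 272 TPM in TCF-1 cKO cells (log2 fold change -0.88, SE 0.47, edgeR adjusted p = 0.258). Its WT replicate 3 was the lowest of the 6 libraries, and without it the log2 fold change was -1.25 (adjusted p = 0.0328). Trbc1 had a log2 fold change of 0.47 (SE 0.46, adjusted p = 0.526). Trbc2 had one of -0.28 (SE 0.40, adjusted p = 0.675) with TMM and of 0.03 with library totals, and the sum of both beta genes one of 0.01 (adjusted p = 0.993). Trdc had a log2 fold change of 1.18 (SE 0.68, edgeR adjusted p = 0.293), from 0.810, 0.401 and 0.614 TPM in WT to 1.95, 2.34 and 0.427 TPM in TCF-1 cKO cells, which overlapped. Trgc4 was left out by the filter on low counts, at 9, 4 and 1 estimated counts in WT and 34, 3 and 19 in TCF-1 cKO cells. The median log2 fold change was 0.82 over the 6 members tested and 0.15 over all genes.

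Whether the genotype difference changed from one stage to the other was read from an interaction term fitted to all 12 libraries. No member passed, 0% of 21526 genes were called higher and 0.00465% lower, and 3377 genes (15.7%) and 3 members had an unadjusted p below 0.05. The terms of all 7 members were positive, from 1.29 (SE 0.62) for Trac to 3.59 (SE 1.57) for Trgc4, with edgeR adjusted p from 0.240 to 0.335. Trbc1 had a term of 2.29 (SE 0.76, adjusted p = 0.240) and Trgc2 one of 2.19 (SE 1.06, adjusted p = 0.328). Without WT post-transplant replicate 3 Trbc1 and Trbc2 passed, at 3.01 (edgeR adjusted p = 0.0507) and 2.11 (adjusted p = 0.0944). Limma-voom with quality weights called 4 members and 16% of all genes, and DESeq2 called 1 member and 7.96%.

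The gamma-delta to alpha-beta ratio was taken as summed TPM of the 4 gamma-delta genes in percent of that of the 3 alpha-beta genes. Before transplant it was 2.30, 0.441 and 2.14% in WT and 3.34, 8.67 and 1.10% in TCF-1 cKO cells. By day 7 the ratio was 0.438, 0.361 and 0.563% in WT and 1.62, 1.01 and 2.16% in TCF-1 cKO cells. The day 7 groups did not overlap and their means, 0.454 ± 0.102% and 1.60 ± 0.573%, differed 3.52-fold (exact permutation p = 0.1, two-sided, the minimum for 3 libraries against 3). The pre-transplant means, 1.63 ± 1.03% and 4.37 ± 3.89%, overlapped (exact permutation p = 0.3).

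The mean ratio was lower on day 7 in both genotypes but the stages overlapped, with log2 ratios of the means of -1.84 in WT (exact permutation p = 0.2) and -1.45 in TCF-1 cKO cells (exact permutation p = 0.3). Adjusted over these 4 comparisons, every p was 0.3. The mean alpha-beta sum was 2271 TPM before transplant and 8933 TPM on day 7 in WT, and 888 and 9323 TPM in TCF-1 cKO cells. The gamma-delta sum was 46.3, 11.3 and 47.7 TPM in WT before transplant and 37.5, 16.5 and 77.0 TPM on day 7. In TCF-1 cKO cells it was 26.9, 57.8 and 13.2 TPM before transplant and 145, 113 and 170 TPM on day 7, where no library overlapped. The stage and genotype comparisons share their libraries and are given side by side only.

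**Figure D3:**
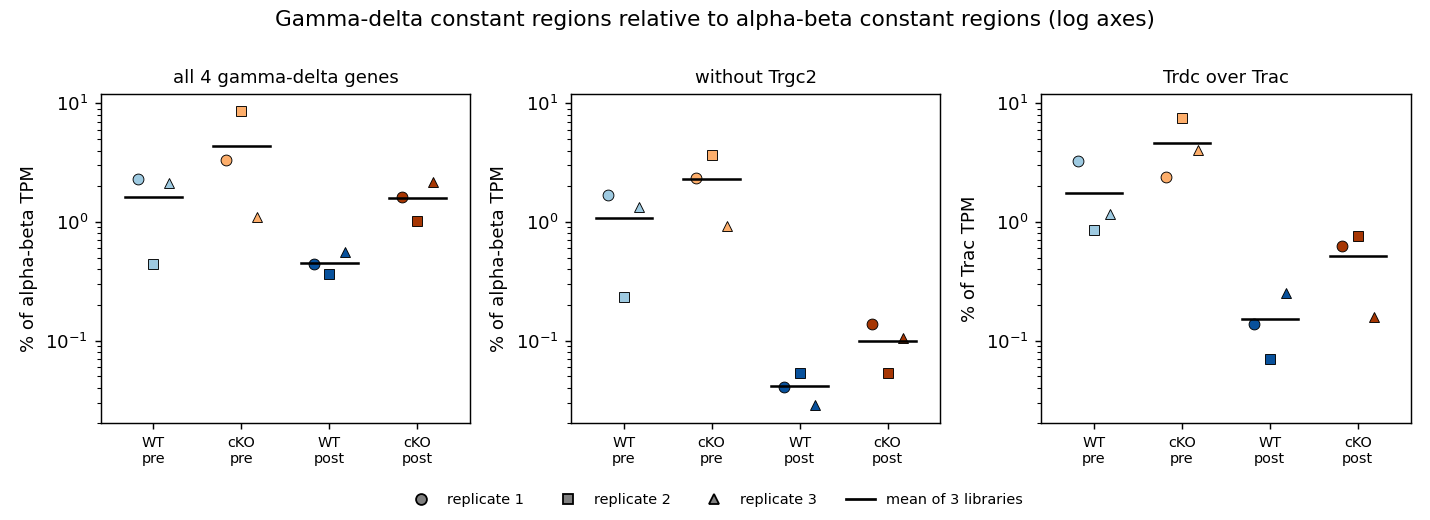
Gamma-delta to alpha-beta ratio (percent of summed TPM, log axis) in each library with group means, for all members and with Trgc2 left out, and Trdc in percent of Trac in the last panel. With all members the day 7 TCF-1 cKO libraries lie above the WT ones, and without Trgc2 the day 7 libraries of both genotypes lie below all pre-transplant libraries.

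One gene carried most of the gamma-delta sum on day 7. Trgc2 made up 26.7, 46.8 and 37.7% of it in WT and 29.1, 57.9 and 16.0% in TCF-1 cKO cells before transplant. By day 7 this was 90.7, 85.2 and 94.9% in WT and 91.5, 94.8 and 95.2% in TCF-1 cKO cells. Those shares did not overlap between the stages in either genotype. With Trgc2 left out, a choice made after seeing the data, the ratio was 1.68, 0.235 and 1.33% in WT and 2.37, 3.65 and 0.927% in TCF-1 cKO cells before transplant. The day 7 values were 0.0409, 0.0533 and 0.0288% in WT and 0.137, 0.0530 and 0.104% in TCF-1 cKO cells, lower than every pre-transplant library of either genotype, and the genotypes then overlapped. Trdc in percent of Trac, the pair that shares a locus 71.652 kb apart on chromosome 14, was 0.857 to 3.25% in WT and 2.40 to 7.54% in TCF-1 cKO cells before transplant, and 0.0702 to 0.2496% and 0.157 to 0.761% on day 7.

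The make-up of the alpha-beta RNA also differed between libraries. Trbc1 was 40.6, 43.6 and 35.4% of the beta sum in WT and 44.2, 30.8 and 46.2% in TCF-1 cKO cells before transplant. By day 7 it was 29.1, 24.8 and 33.03% in WT and 44.1, 37.9 and 46.2% in TCF-1 cKO cells, with no overlap. Trac in percent of the beta sum was 10.7 to 20.02% before transplant. By day 7 it was 7.42, 14.3 and 1.83% in WT and 3.61, 2.85 and 3.57% in TCF-1 cKO cells, and WT replicate 3 had the lowest value of all 12 libraries. These shares were computed after seeing the data and are given with no test.

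**Figure D4:**
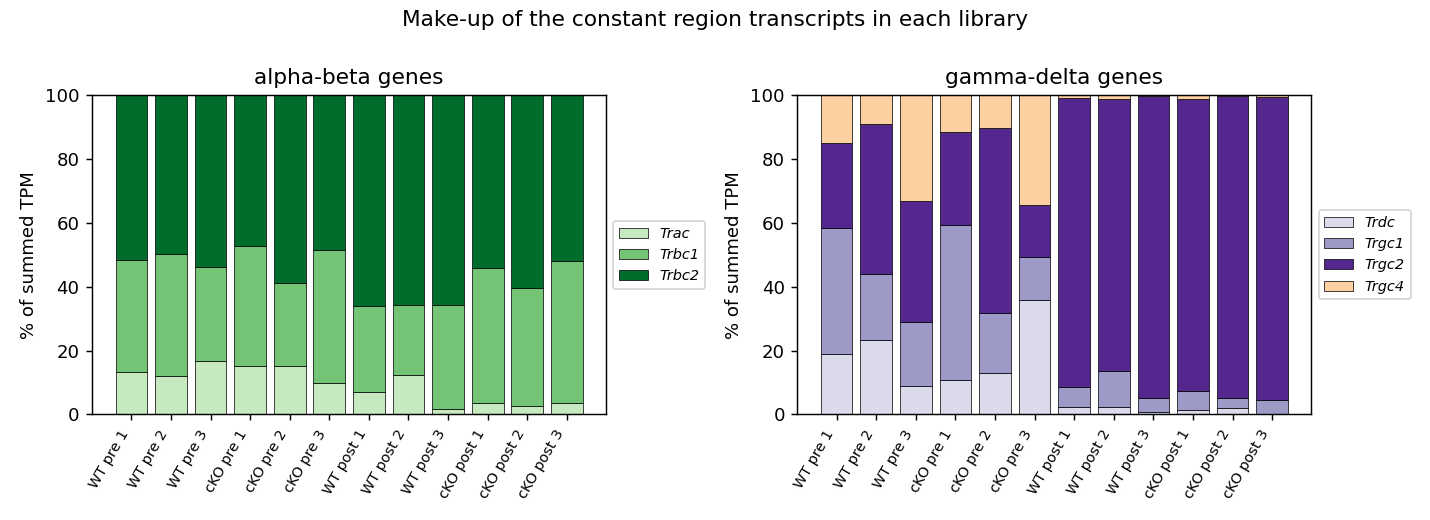
Make-up of the constant region RNA in each library, as the share of each gene in the alpha-beta TPM sum (left) and in the gamma-delta TPM sum (right), in percent as stacked bars from 0. Trgc2 fills most of every day 7 gamma-delta bar, and Trbc2 is the largest part of the alpha-beta bars.

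The CD3 and zeta chains, without which no TCR reaches the cell surface, were the closest partners examined. All 4 were called higher on day 7 in both genotypes with TMM, with a median log2 fold change of 2.57 in WT and 4.44 in TCF-1 cKO cells. For Cd3e in TCF-1 cKO cells this call rests on the scaling, since its TPM overlapped, at 71.8, 40.3 and 75.9 before transplant and 59.8, 52.1 and 49.4 on day 7. In WT cells Cd247, the zeta chain, had the smallest p (2.86, edgeR adjusted p = 0.00354), and in TCF-1 cKO cells Cd3g did (6.04, adjusted p = 0.000105). Between the genotypes 0 of 4 passed before transplant, with a median of -1.41 (Cd3e -1.72 and Cd3d -1.45, edgeR adjusted p = 0.199 each). On day 7 Cd3e was called lower in TCF-1 cKO cells (-2.81, SE 0.67, adjusted p = 0.0448) and the other 3 were not called. The alpha-beta sum over the summed TPM of these 4 chains was 2.65, 3.59 and 3.34 in WT and 2.61, 2.69 and 3.49 in TCF-1 cKO cells before transplant. The day 7 values were 4.84, 2.92 and 6.49 in WT and 3.13, 4.65 and 2.63 in TCF-1 cKO cells, which overlapped with the pre-transplant values.

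Of 22 other gamma and delta segments 5 or 6 were tested in each comparison of 2 groups. The variable segment Trgv2 and the joining segment Trgj2 lie 29.021 and 3.693 kb from Trgc2 on the same strand. Trgv2 was at 5.72, 4.05 and 3.902 TPM in WT and 3.51, 26.8 and 0.607 TPM in TCF-1 cKO cells before transplant. By day 7 it was at 11.4, 6.97 and 28.7 TPM in WT and 49.1, 49.9 and 72.9 TPM in TCF-1 cKO cells. Like Trgc2, it was higher in every TCF-1 cKO library of day 7 than in the WT libraries, and it passed the test there (log2 fold change 1.77, SE 0.57, edgeR adjusted p = 0.0837). Without WT post-transplant replicate 1 that comparison called 0 of 17414 genes, so the call of Trgv2 was lost. Trgv2 also passed between the stages, at 2.91 in WT (edgeR adjusted p = 0.0518) and 4.65 in TCF-1 cKO cells (adjusted p = 0.00691).

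Trgj2 was at 2.39, 3.59 and 10.9 TPM in WT and 0, 14.3 and 0 TPM in TCF-1 cKO cells before transplant. Its day 7 levels were 5.75, 12.5 and 50.3 TPM in WT and 55.9, 61.3 and 54.4 TPM in TCF-1 cKO cells. These rest on few reads of a short segment, at most 4 and 1 estimated counts a library before transplant in WT and TCF-1 cKO cells and 17 and 28 on day 7, so 14.3 TPM is below the floor of 3 counts. Trgj2 was called between the stages in TCF-1 cKO cells (edgeR adjusted p = 0.0111, with no fold given at so few counts) and not between the genotypes on day 7 (1.22, adjusted p = 0.402). The delta variable segment Trdv4, at 4.96, 2.43 and 14.1 TPM in WT cells before transplant and at 0 counts in all 3 libraries on day 7, was called lower (edgeR adjusted p = 0.0261), and Trdv1 was called higher on day 7 in TCF-1 cKO cells (2.69, adjusted p = 0.0631). Before transplant 0 of 6 segments differed between the genotypes.

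**Figure D5:**
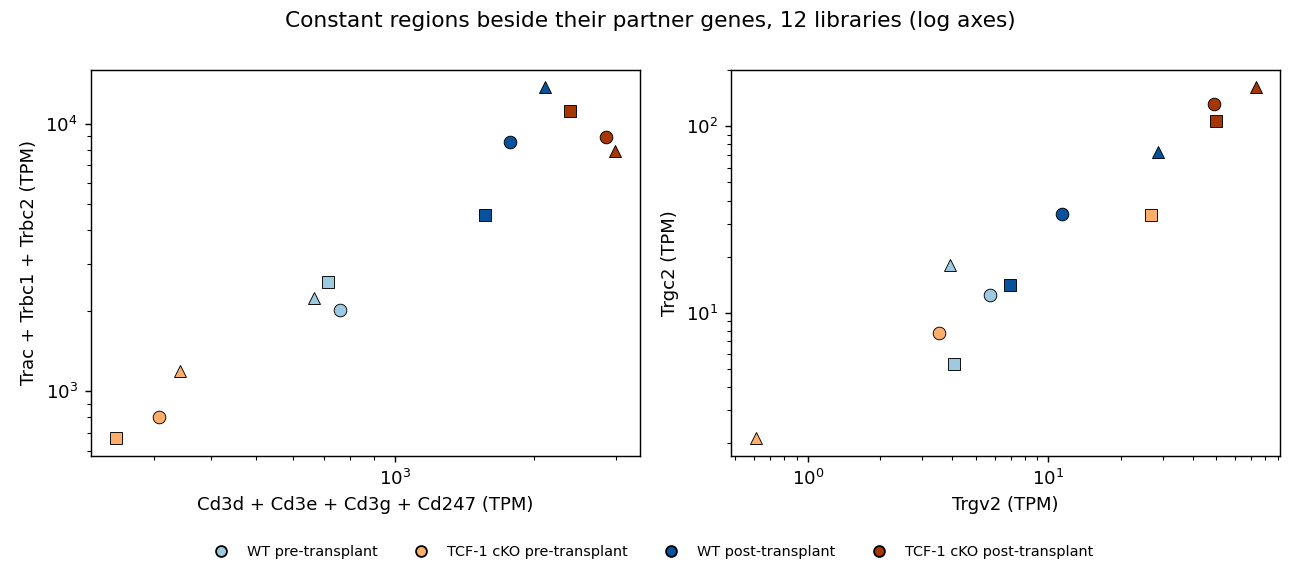
Alpha-beta sum against the summed CD3 and zeta chains (left) and Trgc2 against Trgv2 (right), in TPM on log axes, where a point is a library, its colour the group and its shape the replicate (circle 1, square 2, triangle 3). On the left the day 7 libraries of both genotypes lie to the upper right of the pre-transplant ones, and on the right the day 7 TCF-1 cKO libraries do.

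Of 17 gene symbols listed as markers of gamma-delta T cells, 15 were matched by symbol in the files. None was called between the genotypes at either stage. Of the 13 tested before transplant, 7 had a positive log2 fold change and 6 a negative one. Blk, a kinase of these cells and of B cells, was at -0.22. The median of the 13 was positive and lay above the 0.05 of all genes tested. Il17f was at 27.5, 38.7 and 34.3 TPM in TCF-1 cKO and 5.19, 6.67 and 1.43 TPM in WT cells (edgeR adjusted p = 0.215). On day 7, 2 of 10 tested were called lower in WT cells, Blk (-7.83, edgeR adjusted p = 0.000565) and Tmem176b (-2.59, adjusted p = 0.0279). In TCF-1 cKO cells 6 of 14 were called lower, among them Blk (-7.26, adjusted p = 0.000177), Tmem176a (-5.54, adjusted p = 0.00101), Tmem176b (-2.89, adjusted p = 0.0145) and Sox4 (-2.62, adjusted p = 0.0264), and none was called higher. Their median summed level was 420 CPM in WT and 259 CPM in TCF-1 cKO cells before transplant, and 48.9 and 35.5 CPM on day 7. The marker Il17a was at 0 in all TCF-1 cKO libraries before transplant and all WT libraries of day 7, at 0, 0.312 and 0 TPM in WT before transplant and at 0.0406, 1.92 and 0.897 TPM in TCF-1 cKO cells on day 7. Blk is also a B cell gene, and the B cell list fell in the same comparisons, with 8 of 8 called lower in each genotype at medians of -6.80 and -5.54. The part of B cells in the gamma-delta markers was not tested.

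Among 17 regulators of the TCR loci none was called between the genotypes before transplant (Tcf7 -1.35, Lef1 -1.51, and a negative sign in 16). On day 7, 6 were called lower in TCF-1 cKO cells, led by Id3 (-4.55), Stat5b (-3.44) and Tcf3 (-4.15), each with edgeR adjusted p = 0.0448, and Runx3 (-2.50, adjusted p = 0.0475). Between the stages 1 rose and 4 fell in WT cells, with Id2 at 2.27 (adjusted p = 0.0179) and Tcf7 at -2.71 (adjusted p = 0.0172), and 2 rose and 3 fell in TCF-1 cKO cells, with Id2 at 3.98 (adjusted p = 0.000166) and Id3 at -5.26 (adjusted p = 0.00115). Beside these counts stand 9.7% higher and 10.3% lower among all genes in WT cells, 19.7% and 16.8% in TCF-1 cKO cells, and 15.4% lower between the genotypes on day 7. Id2 and Id3 block the E proteins such as Tcf3, and Stat5b acts in interleukin 7 signalling, which opens the gamma locus in thymocytes. Of the pre-TCR and V(D)J recombination genes, which assemble the receptor genes, 1 of 10 rose and 3 fell in WT cells on day 7 (Dntt -3.99, adjusted p = 0.0929, and Lig4 -3.06, adjusted p = 0.0461, among the lower). In TCF-1 cKO cells 3 of 11 rose, namely Xrcc6 (2.19, adjusted p = 0.00774), Xrcc5 (2.56, adjusted p = 0.0103) and Xrcc4 (1.34, adjusted p = 0.0204), which join broken DNA ends. None of them was called between the genotypes.

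Markers of T cells and of other cells moved beside the constant regions. Of 9 CD8 and CD4 T cell genes, 6 rose and 1 fell on day 7 in WT and 5 rose and 1 fell in TCF-1 cKO cells, with Cd8a at 2.14 (edgeR adjusted p = 0.0189) and 4.45 (adjusted p = 0.000116). On day 7, 5 of them were lower in TCF-1 cKO than in WT cells, among them Cd5 (-3.21) and Cd6 (-3.91, adjusted p = 0.0448). Of 8 NK cell genes none was called between the genotypes, while between the stages 3 fell in WT cells, and 2 rose and 3 fell in TCF-1 cKO cells, where Klrk1, encoding NKG2D, was at 4.89 (adjusted p = 0.000185). Their summed level ranged from 56.3 to 480 CPM in WT and from 587 to 863 CPM in TCF-1 cKO libraries of day 7. Most of the TCF-1 cKO sum was Klrk1, at 702, 519 and 799 CPM, against 152, 17.5 and 395 CPM in WT. The study states that mouse CD8 T cells themselves gain NKG2D when activated, so this sum does not measure NK cells alone. Of 8 myeloid genes 6 fell in WT and 4 in TCF-1 cKO cells between the stages, and of 6 erythroid genes 6 and 5 fell. On day 7 the myeloid gene Lyz2 was higher (2.16, edgeR adjusted p = 0.0964) and the hemoglobin gene Hba-a2 lower (-3.18, adjusted p = 0.0930) in TCF-1 cKO than in WT cells. Of 8 housekeeping genes 4 rose in WT and 6 in TCF-1 cKO cells, and 3 were lower in TCF-1 cKO cells on day 7. Between the stages their median log2 fold change was 1.68 in both genotypes, against -0.30 in WT and -0.29 in TCF-1 cKO cells over all genes. The log2 fold change of Trac in WT cells was 1.83. The part of other cells in the constant region differences was not tested.

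The genes most like each member were taken by Pearson's r of log2 normalized CPM over the 12 libraries, among 21526 genes, with stage, depth and sorting shared by all points. For Trac they were Cd8a (r = 0.981), Cd7 (0.979) and Snx3 (0.978), and for Trbc1 they were Sri (0.993), Psme2 (0.992) and Cd52 (0.991). For Trbc2 they were Trbj2-1 (0.995), the joining segment 3.926 kb away, Akr1b3 (0.995) and Sec61b (0.993). For Trgc2 they were C1d (0.989), Magoh (0.986) and Smc2 (0.981). The closest genes to the low-level members were less like them, with Cdk19 (0.925), Dnase1 (0.904) and Cers3 (0.887) for Trdc, Lnpep (0.962), Esco1 (0.943) and Itfg1 (0.930) for Trgc1, and Naip6 (0.923), C9orf72 (0.923) and Cdc40 (0.891) for Trgc4.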

How the data were processed

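RNA of 12 samples of sorted CD8 T cells was made into SMART-Seq HT cDNA and Nextera XT libraries and sequenced as read pairs. The authors pseudoaligned the reads with Kallisto (version 0.46.2 in the submitters' processing notes, which also list limma and the build mm9) and deposited 2 values for each of 117497 transcripts. The deposited estimated counts carry no scaling for length or depth. The deposited TPM values, also Kallisto output, are scaled for transcript length and library total. The transcript release is not given in the sources used here. Groups were read from the sample titles. Replicate 2 of the post-transplant TCF-1 cKO group has CD4 in another label and CD8 in its title, and the title was followed.

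Transcripts were joined without version numbers to GENCODE M21 (GRCm38), which names the gamma genes Tcrg-C1, Tcrg-C2 and Tcrg-C4. A gene was found for 116374 transcripts, 115847 of which have the same length there. Estimated counts were summed by gene and rounded to whole numbers, and TPM values were summed. Each comparison used its own 6 libraries with edgeR 4.0.16 (TMM, filterByExpr, quasi-likelihood test, Benjamini-Hochberg adjustment over all genes tested, FDR of 0.1), and the interaction used all 12. The SE is the absolute log2 fold change divided by the square root of F. Ratios were compared by two-sided exact permutation tests. Other software was R 4.3.3, limma 3.58.1, DESeq2 1.42.0, Python 3.11.15, pandas 2.3.3 and SciPy 1.17.1. The fits were tested on simulated data.

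The members and the 11 gene lists were chosen with earlier results of these data known. Besides the members the text names, of each list, up to 4 genes per comparison with the smallest p among those past the FDR or else the first 2 tested, the genes that check the labels, and the 3 genes most like each member. A gene that this rule would name is not reported here. Trgv2, Trgj2, the sums with Trgc3 and Il17f before transplant were also followed after their values were seen. Alternatives were limma-voom without and with quality weights, DESeq2, its size factors, library totals, counts scaled from TPM, no filter, CPM above 1 in at least 3 libraries, FDR of 0.05, copies summed, a replicate block, an offset for GC content and length (loess, span 0.4, degree 2), both together, 1 fit over 12 libraries, and each library left out. No 2 libraries of a group agreed within counting error, since chi-square divided by its degrees of freedom was 25.2 to 751.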

Additional observations from a re-analysis of the deposited data

How the results depend on the processing

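Trbc1 and Trbc2 were called higher on day 7 in both genotypes in all 20 alternatives, as were Trac and Trgc2 in TCF-1 cKO cells. With copies summed both beta genes share 1 test, and Trgc2 shares 1 with Trgc1 and Trgc3. The FDR of 0.05 reuses the main fit. All 52 alternative ratios kept their direction, but the replicate block changes only the p of a ratio, so its direction there was fixed. In WT cells Trac was called in 15 of 20 and Trgc2 in 18 of 20. Trgc4 had an edgeR, voom or DESeq2 adjusted p below 0.1 in 12 of 19. Among these is the FDR of 0.05, which its edgeR adjusted p of 0.0510 does not pass. The number of members called, 0 between the genotypes before transplant, was 3 with quality weights, 3 with DESeq2, 1 with no filter and 0 to 3 with a library left out. On day 7, also 0, it was 1 with voom, 4 with quality weights, 1 with DESeq2 and 1 with CPM above 1. It was 1 with the replicate block and 0 to 2 with a library left out. With copies summed it was 2, Trgc1 and Trgc2, which there share 1 test of their sum with Trgc3. Between the stages in WT cells, 5 with TMM, it was 3 with the replicate block and the offset together and 3 to 4 with a library left out. For the interaction it was 4 with quality weights, 1 with DESeq2 and 0 to 2 with a library left out. Over all genes before transplant, no filter called 619 of 32123. On day 7 voom called 2727, quality weights 7591, DESeq2 4524 and the replicate block 2038 of 16026 genes. CPM above 1 called 2998 of 13486 there, and copies summed 2870 of 16023. In WT cells between the stages, the replicate block and the offset together called 2988 of 16790 genes.

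Log2 fold changes turned sign before transplant with library totals for Trdc (0.080) and Trgc2 (0.41), and with CPM above 1 for Trgc2 (0.0026). With a library left out the ranges were -0.66 to 0.24 for Trdc and -1.07 to 0.10 for Trgc1, turning without WT replicate 1, and -1.57 to 0.32 for Trgc2, turning without WT replicate 3 or TCF-1 cKO replicate 1 or 3. On day 7 Trbc2 turned with library totals (0.034) and without WT replicate 3, over a range of -0.56 to 0.0026. With copies summed, the sum of Trbc1 and Trbc2 was at 0.0069. Between the stages the sum of Trgc1, Trgc2 and Trgc3 was at 2.06 in WT cells with copies summed, a setting in which Trgc1 has no value of its own. In TCF-1 cKO cells Trdc was at -0.040 with voom and -1.34 with library totals and Trgc1 at -0.014 with library totals, while without TCF-1 cKO post-transplant replicate 2 both Trdc (range -0.033 to 0.74) and Trgc4 (range -1.42 to 0.11) turned. The cause was not tested. The log2 fold change between the stages without Trgc2 in the ratio, chosen after seeing the data, was -4.72 in WT and -4.56 in TCF-1 cKO cells.

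The replicate numbers gave no pairing: the correlation of deviations of same-numbered libraries was -0.134 to 0.165, above 0.1 in 2 of 12 pairs. With the replicate block 0 members were called before transplant, 1 on day 7 (Trgc2, 1.82, edgeR adjusted p = 0.0911), 4 between the stages in each genotype and 0 for the interaction. Over all genes the block called 0 of 18757 before transplant, 2038 of 16026 on day 7 and 0 of 21526 for the interaction. Between the stages it called 3097 of 16790 genes in WT and 5478 of 18535 in TCF-1 cKO cells. Genes called over the whole table before transplant were 7 by edgeR, 7566 with quality weights, 1451 with DESeq2, 619 with no filter and 2739 without TCF-1 cKO replicate 3. On day 7 there were 2868 by edgeR, 7591 with quality weights, 4524 with DESeq2, 829 with the offset, 2 with the offset and the block, 5299 without WT replicate 3 and 0 to 2 without any other library. In WT cells quality weights called 6318 in place of 3362, and in TCF-1 cKO cells library totals called 12268 in place of 6774. The interaction called 1 by edgeR, 3440 with quality weights, 1713 with DESeq2, 580 with no filter and 2093 without WT post-transplant replicate 3. Depth limits Trgc4, which had 1 to 34 estimated counts a library on day 7.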

Other observations

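Trgc3, a further gamma constant region that is no member here, had 0, 18 and 0 estimated counts in WT and 0 in all 3 TCF-1 cKO libraries before transplant. On day 7 it had 1, 0 and 5 in WT and 34, 9 and 22 in TCF-1 cKO cells. Its level in TPM on day 7 was 0.134, 0 and 0.482 in WT and 3.68, 0.875 and 1.96 in TCF-1 cKO cells, without overlap (log2 fold change 3.22, SE 1.24, edgeR adjusted p = 0.135). The gamma-delta sum in percent of the CD3 and zeta chain sum was 6.09, 1.58 and 7.15% in WT and 8.72, 23.3 and 3.85% in TCF-1 cKO cells before transplant. On day 7 it was 2.12, 1.05 and 3.65% in WT and 5.06, 4.71 and 5.68% in TCF-1 cKO cells, the latter all above the former.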
